A study of Homo sapiens with 2 samples.

Results

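The summits that flank protein-coding genes were chosen from a single list of 2697 WSTF ChIP-seq peak summits in SW620, an established cell line from a colorectal adenocarcinoma metastasis. A summit belonged to the group when the nearest start or end of a protein-coding gene lay more than 1 kb and at most 5 kb away, and no boundary of a gene of any other biotype lay within 2 kb. This rule was met by 180 of the 2697 summits, of which 131 lay inside the gene with the nearest end and 49 outside it. The members were distributed over 173 genes. The series holds 2 samples, SW620-IP and SW620, and its design text names an anti-WSTF antibody with input DNA as the control. The labels do not say that the SW620 sample is that input, so it was placed in no group. The series title names WSTF knockdown, whereas the design text describes the SW620 cells as overexpressing it, and which holds for this list is not known. The design text also mentions biological replicates, but the list is a single one with no read counts. Sequencing depth is therefore unknown, and the cell line label cannot be checked from expression. The gene table gives outer gene ends without exons, so whether an inside summit is exonic, intronic or in a UTR was not determined.

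WSTF is encoded by BAZ1B and carries a bromodomain and a PHD finger. It pairs with the ATPase SMARCA5 in the WICH remodelling complex, acts in replication and DNA damage signalling, and phosphorylates the histone variant H2A.X. Many human genes can be transcribed from more than 1 start, and a gene table that records only the outermost ends places such alternative starts inside the gene. Positions a few kilobases from a gene end can therefore hold promoters of other transcripts, proximal enhancers or ordinary gene body.

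Flanking summits were often found at starts that the outer gene limits do not show. RefSeq promoter windows, each covering 250 bases before to 50 bases after a transcript start (assembly GRCh38.p14, the coordinates of hg38), were used as a list of starts, of coding and other genes alike. The summit base itself lay within such a window for 24 members, 22 inside their gene and 2 outside it. The windows below are those of the 5 highest-scoring inside members and of both outside members. They are shown because each is the sequence under a summit that by gene limits alone would count as the body of a gene, its own or, for both outside members, a neighbouring one. Each is written 5′ to 3′ on the strand of the gene, and capitals mark the summit base with up to 5 bases on either side.
SLC11A2 start window (chr12:51026335-51026634, minus strand): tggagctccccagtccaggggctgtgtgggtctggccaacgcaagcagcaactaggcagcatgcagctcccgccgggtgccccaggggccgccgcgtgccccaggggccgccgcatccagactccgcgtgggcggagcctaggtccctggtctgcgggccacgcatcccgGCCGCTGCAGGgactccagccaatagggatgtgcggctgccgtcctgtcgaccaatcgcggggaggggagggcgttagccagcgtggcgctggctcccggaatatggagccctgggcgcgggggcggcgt
BCAR1 start window (chr16:75265958-75266257, minus strand): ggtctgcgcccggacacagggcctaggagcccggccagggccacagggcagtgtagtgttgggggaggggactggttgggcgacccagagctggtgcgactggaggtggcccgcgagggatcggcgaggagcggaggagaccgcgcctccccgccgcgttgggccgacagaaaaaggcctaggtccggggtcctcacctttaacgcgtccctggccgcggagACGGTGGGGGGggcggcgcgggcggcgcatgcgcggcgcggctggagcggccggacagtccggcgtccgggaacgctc
UBP1 start window (chr3:33440356-33440655, minus strand): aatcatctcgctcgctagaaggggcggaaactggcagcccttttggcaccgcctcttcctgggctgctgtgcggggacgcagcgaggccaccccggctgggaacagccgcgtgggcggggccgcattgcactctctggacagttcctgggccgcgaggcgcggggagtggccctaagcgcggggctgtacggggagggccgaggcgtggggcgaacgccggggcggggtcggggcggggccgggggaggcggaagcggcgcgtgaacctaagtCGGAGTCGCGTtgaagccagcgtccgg
ATG101 start window (chr12:52069728-52070027, plus strand): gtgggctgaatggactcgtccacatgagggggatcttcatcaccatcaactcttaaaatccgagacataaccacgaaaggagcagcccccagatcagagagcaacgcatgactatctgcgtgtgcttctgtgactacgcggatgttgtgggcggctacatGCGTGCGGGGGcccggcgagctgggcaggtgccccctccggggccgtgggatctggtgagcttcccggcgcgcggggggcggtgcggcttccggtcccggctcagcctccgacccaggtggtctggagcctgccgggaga
ATF1 start window (chr12:50764329-50764628, plus strand): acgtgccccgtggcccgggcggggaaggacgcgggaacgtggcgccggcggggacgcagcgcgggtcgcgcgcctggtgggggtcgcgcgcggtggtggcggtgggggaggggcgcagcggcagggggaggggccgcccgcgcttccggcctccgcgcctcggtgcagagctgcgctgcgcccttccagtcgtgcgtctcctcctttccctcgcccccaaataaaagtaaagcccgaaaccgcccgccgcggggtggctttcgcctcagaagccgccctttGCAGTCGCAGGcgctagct
TSEN34 start window (chr19:54191058-54191357, plus strand): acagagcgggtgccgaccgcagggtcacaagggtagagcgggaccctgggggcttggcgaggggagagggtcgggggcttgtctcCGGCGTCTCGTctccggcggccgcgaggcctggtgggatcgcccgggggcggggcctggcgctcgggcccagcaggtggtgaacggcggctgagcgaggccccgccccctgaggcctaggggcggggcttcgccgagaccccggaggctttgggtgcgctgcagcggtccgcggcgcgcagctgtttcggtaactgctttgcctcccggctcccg
YIF1B start window (chr19:38315898-38316197, minus strand): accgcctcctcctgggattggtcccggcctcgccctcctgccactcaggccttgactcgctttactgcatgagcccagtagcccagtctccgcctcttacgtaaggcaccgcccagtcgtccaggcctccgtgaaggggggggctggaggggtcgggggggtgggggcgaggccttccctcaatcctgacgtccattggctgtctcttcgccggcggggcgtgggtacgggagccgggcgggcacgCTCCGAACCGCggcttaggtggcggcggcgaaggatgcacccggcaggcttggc

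The SLC11A2 window, at a start of the iron transporter gene DMT1, holds the summit at base 176 of 300, and 72.7% of its bases are G or C. The windows of BCAR1 (74.3% G+C), a scaffold of integrin signalling, and UBP1 (72.7%), a transcription factor gene, hold the summit at bases 228 and 279. ATG101, needed for the start of autophagy, has the lowest G+C of the 5 inside windows at 64.7%, with the summit at base 166. The summit of ATF1, a CREB-family transcription factor gene, lies at base 287 of a window with 75% G+C. The 2 outside windows belong to other coding genes than the one whose end was nearest. The summit 1568 bp outside MBOAT7 fell in the window of TSEN34, a subunit of the tRNA splicing endonuclease, and the summit 3899 bp outside KCNK6 fell 1 bp from a start of YIF1B. The remaining windows under a summit ranged from NOD2, a bacterial sensor gene, with 60.7% G+C, to ARHGEF11, with 80%. Their scores ran from 1.41 at PEX10, a peroxisome biogenesis gene, to 6.63 at ARHGEF11. GGGCGG, the core of the GC box bound by SP and KLF factors, is present on at least 1 strand in all 7 printed windows.

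Inside positions held 131 of the 180 members (72.8%, exact 95% interval 65.7 to 79.1), whereas 52.6% of the 205.9 Mb that meet the rule lie inside a gene. This difference depended on how members were chosen. With a lower limit of 2 kb the share inside was 59.8% (48.3 to 70.4) against 52.8% of bases, and with only genes of at least 10 kb it was 52.4% (45.4 to 59.4) against 55.4% of bases. Strand was available through the promoter windows for 143 members. The nearest end was the gene's start for 114 of these (79.7%, 72.2 to 86.0), against 49.0% of the bases with a listed strand. Under the same alternatives this share was 70.1% (57.7 to 80.7) against 49.9% of bases, and 63.2% (55.5 to 70.4) against 48.8%. Members inside a gene were nearest its start in 92 of 103 cases (89.3%, 81.7 to 94.5). Members outside were nearest the start in 22 of 40 cases (55.0%, 38.5 to 70.7). The excess near starts lay on the inner side. On the outer side the interval includes the 48.6% of outside bases that are nearest a start. For comparison, summits within 1 kb of a coding gene end were nearest a start in 98.0% of 1653 cases (97.2 to 98.6) and inside the gene in 53.4% of 1973 (51.2 to 55.6). All intervals cover counting error only, and since positions of a single list are not replicates, no test was made between groups of summits.

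**Figure D1:**
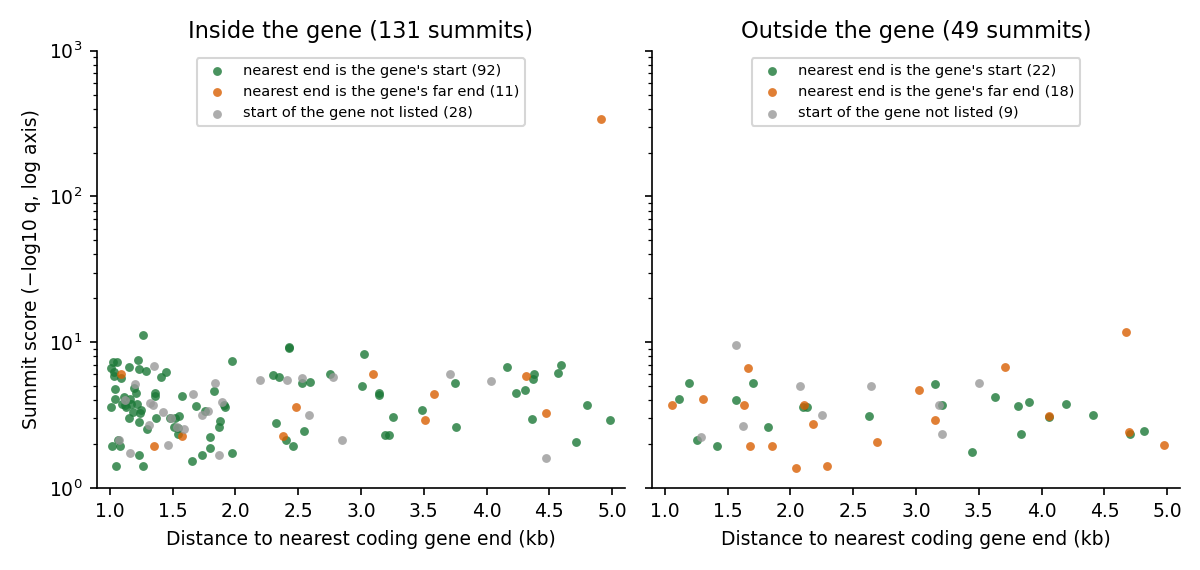
Score of each flanking summit (vertical axis, read as −log10 q, log scale) against its distance to the nearest protein-coding gene end (horizontal axis, kb), inside the gene on the left and outside on the right. Each point is a summit, coloured by which gene end was nearest; inside summits nearest a start crowd between 1 and 2 kb, and the NPAS4 summit at 341.9 stands alone.

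Distance separated the inner start side from the rest. Between 1 and 2 kb inside the gene start there were 60 members in 10.75 Mb, or 5.58 per Mb (exact Poisson 95% interval 4.26 to 7.18). From 2 to 3, 3 to 4 and 4 to 5 kb inside the start the density was 0.984, 0.930 and 1.09 per Mb. Inside the far end it stayed between 0.176 and 0.304 per Mb over the same distances. Outside the start it ranged from 0.309 to 0.754 per Mb, and outside the far end from 0.319 to 0.531 per Mb. Over the whole 1 to 5 kb, the inner start side had 2.15 members per Mb (1.73 to 2.64) and the inner far-end side 0.251 (0.125 to 0.448), and these intervals do not overlap. The outer start side had 0.587 (0.368 to 0.889) and the outer far-end side 0.454 (0.269 to 0.717), and these do. The median distance was 1685 bp inside (1488 to 1897) and 2627 bp outside (2079 to 3205).

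**Figure D2:**
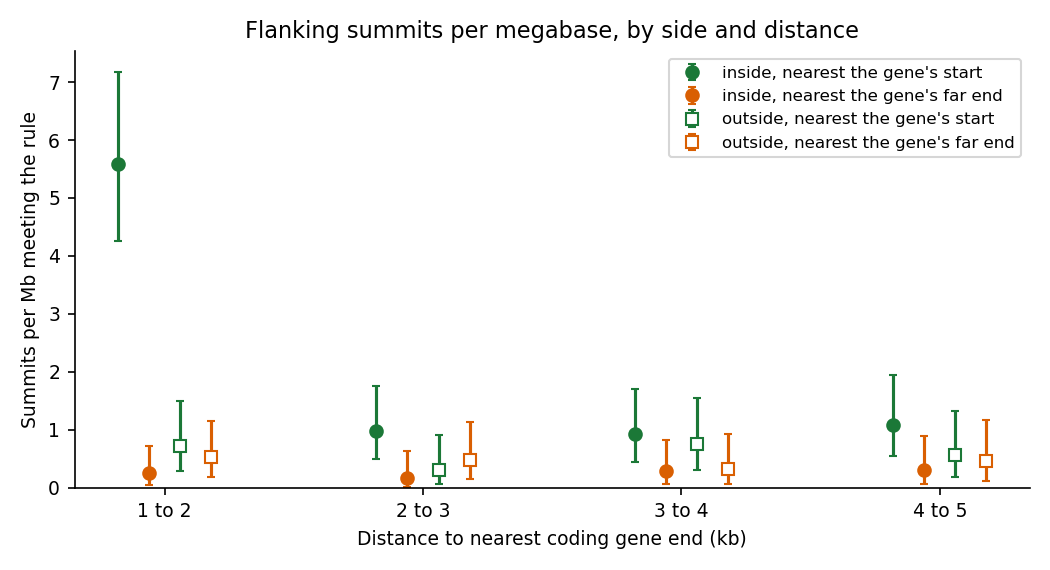
Flanking summits per megabase of sequence that meets the rule (vertical axis), by distance to the nearest coding gene end (horizontal axis, kb), for both sides of gene starts and far ends. Points are densities and bars exact Poisson 95% intervals; the 1 to 2 kb interval inside gene starts stands at 5.58 per Mb and every other point is at or below 1.09.

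Many inside members lay at listed starts. Of the 127 inside members on chromosomes with listed starts, 40 (31.5%, 23.5 to 40.3) lay within 250 bp of a listed start and 61 (48.0%, 39.1 to 57.1) within 1000 bp. The corresponding shares of the inside bases are 0.552% and 2.34%. Outside members had 5 of 49 (10.2%, 3.40 to 22.2) within 250 bp and 7 of 49 (14.3%, 5.94 to 27.2) within 1000 bp, against 0.0816% and 0.366% of the outside bases. The rule bars outside members from the starts of their own gene, so the inside and outside shares are not compared with each other. Over all summits of the list 57.5% lay within 250 bp and 74.6% within 1000 bp. The rule removes positions near outer gene ends, starts included, so nothing is read from the lower shares of the flanking summits. Summits beyond 5 kb of any coding gene end stood near the inside members, with 117 of 434 (27.0%, 22.8 to 31.4) within 250 bp. Summits at 1 to 5 kb left out for a boundary of another biotype had 38 of 93 (40.9%, 30.8 to 51.5). Listed starts include those of other biotypes, so such a boundary can itself be a listed start. The start belonged to the gene with the nearest end in all 40 inside cases, and to another gene in the 5 outside cases, where the rule keeps out starts of the nearest gene. The outside starts were those of TSEN34, YIF1B, GOLGA1 (105 bp away, nearest gene SCAI), the growth inhibitor gene ING1 (188 bp, CARS2) and CLUAP1 (54 bp, C16orf90). Among the genes of the 40, 17 also had a start listed within 10 bp of the outer gene start, and for the other 23 the listed starts all lay elsewhere. Among the 45 members chosen as within 250 bp of a start, the median offset was 36 bp downstream, with quartiles at -26 and 124 bp. The 1306 summits at coding gene ends chosen in the same way had a median of -7 bp and quartiles of -93.8 and 77.3 bp, negative values being upstream.

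Several listed starts were common among genes with an inside member. Of 101 listed genes of inside members, 49 (48.5%, 38.4 to 58.7) had 2 or more starts. This compares with 27.6% (25.6 to 29.7) of 1899 listed coding genes over 2 kb bearing a summit at an end, and 27.0% of 14895 such genes whether or not they bore one. The rule keeps members more than 1 kb from outer ends. An inside member can thus lie at a start of its gene only where an inner start is listed. The choice of members therefore favours genes with several listed starts, and nothing is read from the difference. The median gene length was 23449 bp over all 128 genes of inside members, those without a listed start included. It was 27837 bp for the genes over 2 kb with a summit at an end. Length was not compared for the 101 listed genes alone.

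Not all members of the inner start side lay within 1000 bp of a listed start. Farther than that, 21 members remained between 1 and 2 kb inside gene starts, at 2.19 per Mb (1.36 to 3.35). The cut equals the lower limit of the rule, so a member just inside a listed outer start falls in this class by construction. All but those of ADCY7 (20406 bp) and MCFD2 (24659 bp) lay 1021 to 1918 bp from a listed start. They are therefore not remote from starts. From 2 to 5 kb inside starts the same class held 13 members at 0.418 per Mb (0.223 to 0.715). The 2 densities thus also differ in distance to listed starts. Inside far ends, farther than 1000 bp from listed starts, the density was 0.183 per Mb (0.0791 to 0.361) over 1 to 5 kb. Whether open chromatin or unlisted starts coincide with these summits was not tested.

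**Figure D3:**
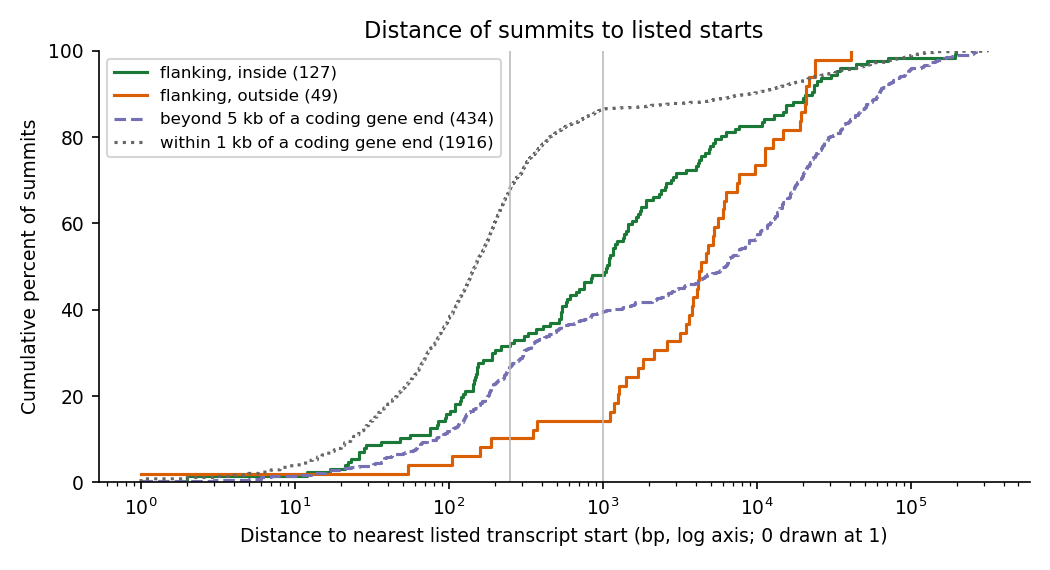
Cumulative percent of summits (vertical axis) by distance to the nearest listed transcript start (horizontal axis, bp, log scale), for flanking summits inside and outside genes, summits beyond 5 kb of any coding gene end and summits within 1 kb of one. Grey lines mark 250 and 1000 bp; inside flanking summits reach 31.5% at 250 bp, outside ones 10.2% and summits within 1 kb of a gene end 68.2%.

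Base composition of the start windows near members was close to that of starts beside gene-end summits. The 45 windows within 250 bp of a flanking summit had a median G+C of 71.7% (exact interval 68.3 to 74.0) and a median observed/expected CpG ratio of 0.866 (0.802 to 0.925). The 1306 windows within 250 bp of a summit at a coding gene end had medians of 69.7% and 0.902. The 47 other listed starts of the same inside genes had medians of 63.7% (60.0 to 66.3) and 0.565 (0.401 to 0.780). Starts that were the nearest listed start of a summit within 250 bp were left out of these 47. A start that was only second nearest to such a summit was not left out. Among all 22132 listed starts of coding genes the medians were 62.3% and 0.738. A comparison within genes was possible for 27 of the 40 inside genes. The start beside the summit had the higher G+C than the mean of the gene's other starts in 19 of the 27 and the lower in 7, with 1 tied and a median difference of 10.3 percentage points. Its CpG ratio was higher in 20 and lower in 7, with a median difference of 0.183.

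Short motifs were counted in the same windows. GGGCGG was found, on either strand, in 41 of the 45 windows (91.1%, 78.8 to 97.5), in 83.2% of windows at gene-end summits, in 26 of the 47 other starts of the same genes (55.3%, 40.1 to 69.8) and in 56.3% of all coding gene windows. The E-box CACGTG was in 6 of 45 (13.3%) and 8.34% of all coding gene windows. CCAAT was in 37.8% against 34.6%, and the AP-1 motif TGANTCA in 4.44% against 6.15%. The ETS motif CCGGAAG was in 15.6% (6.49 to 29.5) of the 45 windows, 24.1% (21.8 to 26.5) of windows at gene-end summits and 12.8% of all coding gene windows. The NRF1 half-site GCGCATG was in 6.67% (1.40 to 18.3), 12.02% (10.3 to 13.9) and 5.26%. The windows at gene-end summits held CACGTG in 12.8%, CCAAT in 34.2% and TGANTCA in 3.37%. CCCTC, part of the CTCF core, was in 86.7% (73.2 to 94.9) of the 45 windows and 82.8% of windows at gene-end summits. It was in 80.9% of the other starts of the same genes and 76.6% of all coding gene windows, a value inside the interval of the 45. This motif can share bases with the GC box when the strands differ. These counts describe letters in the windows and not bound sites.

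**Figure D4:**
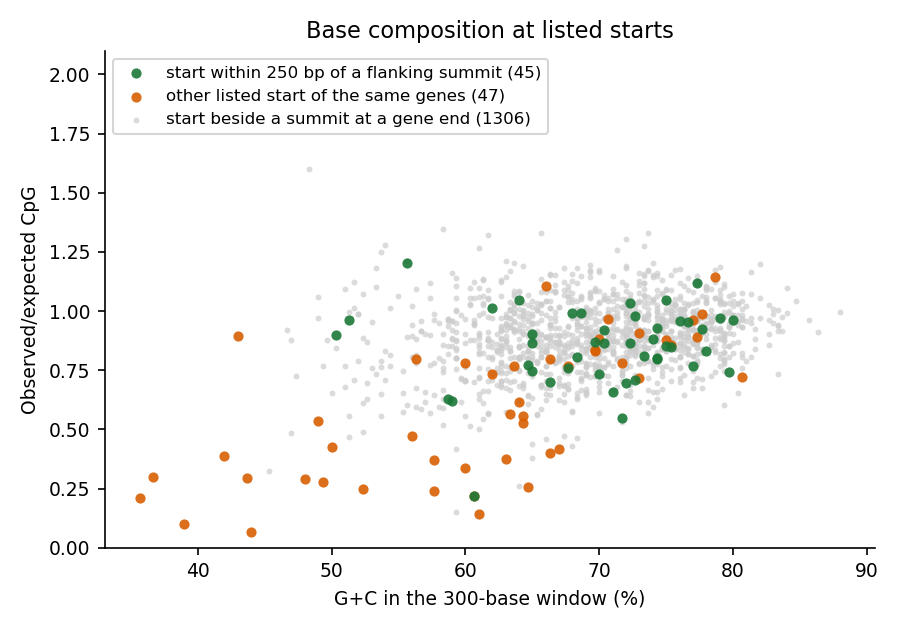
Observed/expected CpG ratio (vertical axis) against G+C percent (horizontal axis) of 300-base windows at listed starts. Green points are starts within 250 bp of a flanking summit (median 71.7% G+C), orange points other listed starts of the same inside genes (63.7%) and grey points starts beside a summit at a coding gene end (69.7%).

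Scores placed the flanking summits in the middle of the list. The deposited score was read as −log10 q from its lowest value, as no label states its meaning, and was compared only within the list. The 180 members had a median of 3.66 (exact interval 3.30 to 3.83) and the other 2517 summits 3.72 (3.69 to 3.76). Inside members had a median of 3.72 (3.33 to 4.30) and outside members 3.58 (2.74 to 3.72), a difference of 0.139 with overlapping intervals. A score of at least 5 was reached by 51 members (28.3%, 21.9 to 35.5), beside a background of 25.8% of all summits. By side the share was 32.1% inside (24.2 to 40.8) and 18.4% outside (8.76 to 32.0). Scores were tied for 65 members.

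The highest-scoring inside members covered varied functions. NPAS4, which encodes a transcription factor induced by neuronal activity (chromosome 11, 66409158 to 66426707), had the summit with a score of 341.9 at position 66421794. It lay 4913 bp inside the far end of the gene and 759 bp downstream of a listed NPAS4 start. The next was ARSB, a lysosomal sulfatase gene, with 11.2 at chromosome 5 position 78984696, 1262 bp inside the gene start. Iron uptake was represented by SLC11A2 (9.33 at chromosome 12 position 51026459), whose window is printed above. RASGRP2, which encodes an exchange factor for RAP1, had 9.17 at a distance of 2431 bp from the gene start. ZNF217, a zinc finger gene often amplified in carcinomas, had 8.23 at 3023 bp. After these came the peroxisomal import receptor PEX5 (7.59), BCAR1 (7.40), UBP1 (7.35), the JNK phosphatase DUSP16 (7.30) and ATG101 (6.93). ELAVL3 (6.84), a neuronal RNA-binding protein gene, and HYLS1 (6.77), a centriole gene, completed the first 12. Of these 12, SLC11A2, PEX5, BCAR1, UBP1, ATG101 and HYLS1 had the summit within 250 bp of a listed start. None of the 12 genes had a further summit within 1 kb of an end.

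Among outside members, the highest score belonged to a summit 4671 bp beyond the far end of ACD, a shelterin gene on chromosome 16, at position 67652841 with a score of 11.8. This position is inside the neighbouring gene CARMIL2. ESRP2, an epithelial splicing regulator gene, followed with 9.59 at position 68237697 on chromosome 16, 1570 bp outside the gene. LOC124902669 had 6.74, and CBARP had 6.67 at 1666 bp beyond its far end, a position within the tumour suppressor kinase gene STK11. UBALD1 had 5.27, the Notch target gene HES1 5.25, PKMYT1, an inhibitory kinase of CDK1, 5.20, and SREBF1, a regulator of lipid synthesis, 5.15. The cyclin D1 gene CCND1 (5.04), CD248 (4.98), the second HES1 summit (4.67) and the uridine phosphorylase gene UPP1 (4.18) completed the first 12. Of all 49 outside members, 18 (36.7%, 23.4 to 51.7) lay inside another coding gene. The matching share of the outside bases was not counted, so whether this is more or less than the positions allow is not known.

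A few genes had more than 1 flanking summit. CCND1 had summits 2639 and 2249 bp outside the gene at chromosome 11 positions 69638517 and 69638907, with scores of 5.04 and 3.18, and none within 1 kb of an end. HES1 was flanked on both sides, with 5.25 at 1189 bp upstream of its start and 4.67 at 3020 bp beyond its far end, again with none at its ends. CD248, a stromal cell surface gene, had 4.98 and 2.66 at 2079 and 1623 bp outside. Inside genes, the MYC summits lay 1784 and 2531 bp from the lower end of the gene with scores of 3.37 and 5.68. KAT6B, a histone acetyltransferase gene, had 3.72 and 3.36 at 1123 and 1758 bp inside its start, the second 94 bp from a listed start. SIN3A, a corepressor scaffold gene, had 4.26 and 2.07 at 1358 and 4712 bp inside. ACTG1, the cytoplasmic gamma-actin gene, had 1 member inside its start (1.95 at 1021 bp) and 1 upstream (4.04 at 1115 bp), with 2 more summits at the start between them.

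A summit within 1 kb of an end of the same gene accompanied 27 of the 180 members (15.0%, 10.1 to 21.1), against 11.6% of all 19974 coding genes with a summit there. The interval includes this background, and the share was 17.2% (13.8 to 21.1) for summits beyond 5 kb and 19.6% (12.2 to 28.9) for those left out at 1 to 5 kb. The share was 10.7% inside (5.97 to 17.3) and 26.5% outside (14.9 to 41.1). Where both were present the flanking summit scored higher in 10 cases, the summit at the gene end in 16, and 1 was tied. ACD had the widest gap in favour of the flank, with 11.8 against 1.48 at its start. DNAAF9 had the widest in the other direction, with 2.24 at 1288 bp outside the gene and 8.998 at its end. MNT, which encodes a repressor of the MYC network, had 1.67 inside its start and 6.75 at it.

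Near neighbours were found for about 1 in 5 flanking summits. Another summit lay within 10 kb of 39 members (21.7%, 15.9 to 28.4), beside a background of 10.6% of all summits and 9.81% (8.68 to 11.04) of the other summits. The 97 summits at the same distances that were left out for a boundary of another biotype had a like share of 22.7% (14.8 to 32.3). The share was 16.03% inside (10.2 to 23.5) and 36.7% outside (23.4 to 51.7). A neighbour with a score of at least 5 stood nearest to 12 members, those at CCND1, CARS2, RIPOR1, ESRP2, MNT, HEXD, POLR2E, SHANK1, DNAAF9, HES1, UPP1 and MYC.

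Counts of flanking summits differed between chromosomes, beside a share of 6.67% of all summits. Chromosome 11 held 24 (9.09% of its summits, 5.91 to 13.2) and chromosome 17 held 19 (8.37%, 5.11 to 12.8). Chromosomes 16 and 19 held 20 each (10.3%, 6.41 to 15.5, and 11.7%, 7.29 to 17.5). Chromosome 1 held 5 of 205 (2.44%, 0.797 to 5.60). Chromosomes 18, 21 and X held none of their 11, 20 and 41 summits, with upper limits of 28.5%, 16.8% and 8.60%. Only the intervals of chromosomes 1 and 19 exclude the share over all summits. Chromosomes 11, 16, 17 and 19, grouped after their counts were seen, carried 46.1% of members (38.7 to 53.7), 30.7% of the other summits (28.9 to 32.6) and 21.2% of the bases that meet the rule. Chromosome 4 held a single member, in FAT1, an atypical cadherin gene, with a score of 5.01 at 166 bp from a listed start.

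Members were also counted in 10 gene lists with 226 entries, all of which matched a coding gene. In all, 0.866% of coding genes were the nearest gene of a member. The KLF, SP and EGR transcription factor genes had 4 of 29, namely KLF4 (1.41), KLF5 (6.14), EGR1 (2.13) and EGR2 (3.25). KLF5, an intestinal epithelial factor, had its summit 4567 bp inside the outer gene start and 538 bp downstream of a second listed start. EGR1 had its summit 1253 bp upstream. Cell cycle genes had CCND1 alone of 27, RAS-MAPK and PI3K-mTOR genes HRAS alone of 28 (2.61, inside LRRC56), Wnt genes MYC alone of 28, and intestinal identity genes KLF5 alone of 19. The lists of ISWI and WSTF partner genes, of BAF, CHD and INO80 remodellers, and of DNA damage response genes had no member among 17, 27 and 27 genes. In the same 3 lists 5, 8 and 8 genes bore a summit at an end (29.4%, 29.6% and 29.6%), beside 11.6% of all coding genes. Such shares were not particular to these lists. RAS-MAPK and PI3K-mTOR genes had 10 (35.7%) with a summit at an end, and cell cycle genes 7 (25.9%). KLF, SP and EGR genes had 6 (20.7%), Wnt genes 4 (14.3%) and intestinal identity genes 1 (5.26%). The hematopoietic list and the neuronal and liver list had none. As for members, hematopoietic markers had none among 12 genes, and neuronal and liver markers had NPAS4 alone of 12. NPAS4 is the highest-scoring member and the lists were drawn up with earlier results of these data known, so nothing is read from this hit. These counts are small and no list was tested.

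The limits of the rule cut through a continuous spread of distances. Just above 1 kb stood TNS3 at 1008 bp (3.62), ARHGEF11 at 1012 bp (6.63) and ACTG1 at 1021 bp (1.95), and just at or under it TEDC1 and PRR14 at 1000 bp (3.02 each) and SECTM1 at 992 bp (2.04). Just under 5 kb stood ZNF19 at 4983 bp (2.92), NIPSNAP2 at 4977 bp (1.96) and NPAS4 at 4913 bp, and just above it UVSSA at 5013 bp (4.67), SNX12 at 5020 bp (4.12) and LFNG at 5035 bp (2.99). A further 97 summits between 1 and 5 kb were left out because a boundary of another biotype lay within 2 kb, that of an lncRNA gene in 83 cases.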

How the data were processed

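Per the submitters' processing notes, reads of the SW620 ChIP-seq libraries were handled with Trimmomatic 0.39, Bowtie2 2.4.4 and MACS2 2.2.7.1 on build hg38. Per the design text peaks were called against input DNA. The sources used here do not say whether replicates were pooled. The deposited list gives 1 base per peak and a score, read as −log10 of the q-value because the lowest deposited value, 1.31, lies just above the 1.30 of a q of 0.05.

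Summits were set against 59098 RefSeq genes of GRCh38.p14 on chromosomes 1 to 22 and X, with only outer ends and no exons. Strand and transcript starts came from the RefSeq promoter windows, which matched 15812 of 19974 coding genes; chromosome 8 starts were not used. Bases meeting the rule were counted exactly. Intervals are exact (Clopper-Pearson, Poisson, or order statistics for medians) and cover counting error only. The placement of positions was checked on simulated positions. Named genes are the 12 top scores per side, genes with several members, members with a neighbour scoring at least 5 within 10 kb, list genes, lone members of a chromosome and those beside the limits; other named genes were chosen after their values were seen. Members and lists were chosen with earlier results of these data known. Python 3.11.15, pandas 2.3.3 and scipy 1.17.1 were used.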

Additional observations from a re-analysis of the deposited data

How the results depend on the processing

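Of 82 alternative values for 8 results, 71 stayed within the 95% interval of the reported value or, for a count, within 1.5 times of it. For the difference of median scores the range used was instead -0.398 to 1.56, the outer limits of 2 separate 95% intervals. That range is wider than a 95% interval of the difference, and all 10 alternatives of this result fell within it. The number of members, 180, was 332 with a lower limit of 500 bp, 82 with one of 2 kb, 277 with no exclusion of other biotypes and 119 with a score of at least 3. The share inside the gene, 72.8%, was 59.8% with a lower limit of 2 kb and 52.4% when only genes of at least 10 kb were used, where 52.8% and 55.4% of bases lie inside. In the same settings the share nearest a gene start, 79.7%, was 70.1% and 63.2%. Among summits scoring at least 3, a selection on the score itself, the median score was 4.44 and the share scoring at least 5 was 42.9%. The share of inside members within 250 bp of a listed start, 31.5%, was 15.7% within 100 bp. It lay between 28.3% and 37.0% under the other alternatives, all of them chosen after seeing the data, as was counting 1 summit per gene. The difference of median scores, inside minus outside, ranged from -0.10 with a lower limit of 500 bp to 1.503 with one of 2 kb, so its sign is not settled. The cause of these shifts was not tested beyond the change of members that each setting makes. No paired analysis was possible because replicates are not separated in the deposited summits. With the sequencing depth unknown, absence of a flanking summit does not show absence of WSTF.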
